A study of Rattus norvegicus with 2 samples.

Results

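The 9 genes described here belong to the feedback and early response of NF-kB, in cells of the rat meniscus, the fibrocartilage between thigh bone and shin bone. They are Nfkbia, Nfkbiz, Tnfaip3, Ier3, Zfp36, Socs3, Cebpb, Cebpd and Icam1, taken by exact symbol from the 25399 genes of the count tables. They were put together with their levels in these libraries known, so their aged and young values are a description and not a test. The study profiled single cells from 1 aged and 1 young meniscus library with a droplet method that counts the 3' ends of transcripts. Tissue had been digested with protease and then collagenase P, and viable cells had been sorted. The labels give no strain, sex, exact age or number of animals. With 1 library per age no difference can be assigned to age, so every difference below is between these libraries, and the 95% intervals cover counting error only.

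NF-kB transcription factors are held in the cytoplasm by IkB proteins and enter the nucleus when signals such as tumour necrosis factor or interleukin-1 lead to IkB breakdown. Among the first genes they switch on are their own inhibitors, so that the response limits itself, together with proteins that shorten the life of cytokine messages and with factors that act beside NF-kB. In cartilage and meniscus the pathway is known for inducing matrix-degrading enzymes and chemokines. Several of these genes are also known to respond quickly when living tissue is handled.

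Promoters are shown because genes that limit NF-kB are known to carry sites for it close to their start. The RefSeq promoter table of build GRCr8 had an entry for 7 of the 9 genes, all but Ier3 and Cebpd. The NF-kB consensus decamer was searched on both strands of windows of 300 bases, from 250 before to 50 after the start, and 7.51% of 33469 windows hold a match. Matches lay in 4 of the 7 windows, those of Nfkbia, Nfkbiz, Tnfaip3 and Socs3. The 250 bases before the start are printed 5' to 3' on the gene's strand for 3 of these 4, Nfkbia, Nfkbiz and Tnfaip3, with matches in capitals.
Nfkbia (chr6:78597073-78597322, minus strand): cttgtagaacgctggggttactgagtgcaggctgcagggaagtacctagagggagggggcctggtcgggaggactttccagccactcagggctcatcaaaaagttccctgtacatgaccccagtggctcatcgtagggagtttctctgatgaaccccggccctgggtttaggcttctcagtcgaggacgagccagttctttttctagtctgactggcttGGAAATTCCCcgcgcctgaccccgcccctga
Nfkbiz (chr11:58251471-58251720, plus strand): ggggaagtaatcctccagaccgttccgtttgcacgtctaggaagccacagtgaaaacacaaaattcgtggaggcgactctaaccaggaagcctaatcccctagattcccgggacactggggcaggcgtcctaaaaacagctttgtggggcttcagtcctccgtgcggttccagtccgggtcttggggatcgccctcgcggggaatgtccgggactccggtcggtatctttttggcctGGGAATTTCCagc
Tnfaip3 (chr1:15543980-15544229, minus strand): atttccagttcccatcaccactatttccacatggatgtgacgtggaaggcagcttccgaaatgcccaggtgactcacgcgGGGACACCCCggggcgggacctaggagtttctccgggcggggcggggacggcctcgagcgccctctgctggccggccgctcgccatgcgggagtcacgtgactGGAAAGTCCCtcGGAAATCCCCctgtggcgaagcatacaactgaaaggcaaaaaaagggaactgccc
The match of Nfkbia begins 31 bases before the start, that of Nfkbiz 13 bases and that of Socs3 161 bases. Tnfaip3 holds 3 matched stretches, which begin 170, 67 and 55 bases before the start. Its window also has the AP-1 letters TGANTCA, found in 7.33% of windows, and the cyclic AMP response core TGACG, found in 21.2%, which Cebpb has too. The STAT letters, TTC and GAA with any 3 bases between, were in the windows of Zfp36 and Icam1 and in 8.87% of all windows. The STAT match of Zfp36 lay after the start. The letters TATAAA were in the windows of Cebpb, Nfkbia and Icam1 and in 14.2% of all. Those of Cebpb and Icam1 began 33 and 53 bases before the start on the gene's strand. That of Nfkbia lay after the start on the opposite strand. No matches of different motifs overlapped in these 7 windows. A match describes letters and does not show that a factor binds. A window without a match may hold sites of other letters, which were not searched. That of Icam1, for example, holds tggaaattcc, which fails the NF-kB decamer at its first base.

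Cells were grouped by raw marker counts, and each group is called a gate after its marker. The gates are Chad (a cartilage matrix protein) or Dcn (decorin, abundant in fibroblasts) with no count of the leukocyte gene Ptprc, and then Cdh5 (endothelial cells), Csf1r (monocytes and macrophages), S100a8 (neutrophils), Cd3e (T cells), Cd79a (B lineage) and Jchain (plasma cells). The filter kept 6085 aged and 8773 young cells, with medians of 3686 and 3846 UMIs, that is, counted molecules. Aged and young cells numbered 40 and 114 by Chad, 490 and 73 by Dcn, 23 and 10 by Cdh5, 399 and 317 by Csf1r, and 841 and 1175 by S100a8. They numbered 128 and 80 by Cd3e, 102 and 1194 by Cd79a, and 18 and 12 by Jchain. No gate was passed by 65.0% of aged and 63.8% of young cells, of which 69.6% and 93.0% had at least 2 UMIs of the B lineage gene Cd79b. Red cell precursors, gated by Alas2, served as cells that should make little of these genes, with 49 aged and 154 young cells. Levels are CPM, counts per 1000000 UMIs summed over the cells of a gate. The libraries shared 18 barcode sequences.

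The make-up of the connective tissue gates was unlike in the 2 libraries, and this touches every result in them. No aged cell of the Chad gate had 5 or more UMIs of Col2a1, the collagen of hyaline cartilage, against 101 of 114 young cells. In the Dcn gate 94 of 490 aged cells had at least 20 UMIs of Col1a1, the main fibrous collagen, against 68 of 73 young cells. The 3 fibroblast markers, all found in both libraries, summed to 6185 CPM in the aged and 44542 CPM in the young Dcn gate. The 6 cartilage markers, also all found, summed to 14834 and 28766 CPM in the Chad gate. Of the cartilage markers 4 were found in the aged Dcn gate, Col2a1 and Snorc being at 0, and all 6 in the young, at 4514 and 2020.4 CPM. Neutrophil markers were low in both gates, 27.0 and 88.1 CPM by Chad and 123 and 86.1 CPM by Dcn, with Ltf at 0 in each. Ltf was also at 0 in the aged S100a8 gate. Red cell markers were higher in the aged library, 1154 against 198 CPM by Chad and 939 against 158 CPM by Dcn. Median depth was lower in the aged library, 6446 against 14914 UMIs by Chad and 5820.5 against 17574 UMIs by Dcn. Age, make-up and depth cannot be told apart between whole gates, and values within parts of the gates are given further on.

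Nfkbia encodes IkB-alpha, the classical inhibitor that NF-kB itself induces. In the Dcn gate it stood at 1918 CPM in the aged library (interval 1869 to 1969) and 133 CPM in the young (114 to 154), with a log2 ratio of 3.85 (3.63 to 4.08). The Chad gate held 2407 CPM aged (2233 to 2589.9) and 226 CPM young (204 to 250.1), with a log2 ratio of 3.41 (3.23 to 3.59). Aged connective tissue cells thus lay between the aged Csf1r and S100a8 gates, while the young ones were the lowest of the 8 gates, Chad overlapping Jchain. Neutrophils of the S100a8 gate had 2858 CPM aged (2802 to 2916) and 985 CPM young (958 to 1012), and their log2 ratio was 1.54 (1.49 to 1.59). The Csf1r gate had 1713 against 978 CPM and a log2 ratio of 0.81 (0.76 to 0.86). T cells of the Cd3e gate showed 812 and 393 CPM, with a log2 ratio of 1.05 (0.84 to 1.26). All of these intervals lie above 0, those of the leukocytes at smaller ratios than those of the connective tissue gates. Endothelial cells of the Cdh5 gate held 2257 and 1269.95 CPM, with a log2 ratio of 0.83 (0.47 to 1.20). B lineage cells of the Cd79a gate held 543 and 533 CPM and a log2 ratio of 0.027 (-0.10 to 0.15). Jchain-gated cells had 528 and 269 CPM and a log2 ratio of 0.97 (0.59 to 1.36). Only the B lineage interval included 0, and with any Jchain UMI as the gate the Jchain log2 ratio turned to -1.27. Red cell precursors had 133 CPM aged and 36.2 CPM young, below every gate of the same library.

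The order of the gates by Nfkbia differed between the libraries. From highest to lowest the aged order was S100a8, Chad, Cdh5, Dcn, Csf1r, Cd3e, Cd79a and Jchain, in which the intervals of Chad and Cdh5 overlapped and so did those of Cd79a and Jchain. The young order was Cdh5, S100a8, Csf1r, Cd79a, Cd3e, Jchain, Chad and Dcn, with overlap of S100a8 with Csf1r and of Jchain with Chad. Thinning each cell to 2000 UMIs compares detection at one depth. In the Chad gate 80% of aged cells (interval 64.4 to 90.9) then had an Nfkbia UMI, against 28.9% of the young (20.8 to 38.2). For the Dcn gate the shares were 53.4% (48.7 to 58.1) and 17.8% (9.84 to 28.5). Without thinning they were 85% and 78.1% by Chad and 67.6% and 69.9% by Dcn, the young cells being deeper. Alas2-gated cells, with median depths of 12030 and 10344 UMIs, gave thinned shares of 10.2% aged and 3.95% young.

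Nfkbiz encodes IkB-zeta, a nuclear IkB protein that works with NF-kB on a later set of genes, those of interleukin-6 and lipocalin-2 among them. Its aged level was highest in the Chad gate, 635 CPM (interval 547 to 732) against 94.6 CPM young (80.5 to 111), with a log2 ratio of 2.75 (2.43 to 3.06). Next came the Csf1r gate with 484 aged and 366 young CPM, where the log2 ratio was 0.40 (0.31 to 0.49). Neutrophils held 441 aged and 109.8 young CPM, and their log2 ratio was 2.00 (1.86 to 2.14). The Dcn gate had 254 and 65.3 CPM and a log2 ratio of 1.96 (1.63 to 2.30). In the young library the Csf1r gate was highest and stood apart from the others, while S100a8, Chad and Dcn overlapped as neighbours. T cells had 120.3 and 48.6 CPM, with a log2 ratio of 1.31 (0.73 to 1.91). In the Cd79a gate the levels were 16.3 and 21.5 CPM, and the log2 ratio of -0.40 (-1.20 to 0.31) had an interval that includes 0. Endothelial and plasma cells had few counts, 9 aged and 3 young by Cdh5 and 2 and 2 by Jchain. At 2000 UMIs per cell 44.8% of aged and 13.8% of young neutrophils had an Nfkbiz UMI, against 2.04% and 0% of red cell precursors.

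Tnfaip3 encodes A20, a ubiquitin-editing enzyme that shuts off signalling upstream of NF-kB. It was sparse in every gate. Its aged level was highest in T cells, 48.7 CPM (33.7 to 68.0) against 9.46 CPM young (3.80 to 19.5), on 34 and 7 counts, with a log2 ratio of 2.36 (1.17 to 3.78). The aged Cdh5 gate, at 37.0 CPM (10.1 to 94.7), overlapped the aged T cells. Csf1r-gated cells had 26.2 and 12.9 CPM and a log2 ratio of 1.02 (0.58 to 1.48). Neutrophils had 18.0 and 6.1 CPM and a log2 ratio of 1.56 (0.92 to 2.23). The aged library was thus higher in these 3 leukocyte gates. B lineage cells held 6.72 and 9.29 CPM, with a log2 ratio of -0.47 (-1.82 to 0.63). In the Dcn gate 16 aged counts met 0 young, which makes the aged level at least 2.31-fold higher with the young library set to a floor of 3 counts. The Chad gate had 1 aged and 2 young counts, the Cdh5 gate 4 and 0, and the Jchain gate 1 and 0. The aged Chad gate, second of all in Nfkbia, thus had 1 Tnfaip3 count, or 3.38 CPM (0.085 to 18.8). That wide interval overlaps those of the aged S100a8, Cd79a and Dcn gates.

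Ier3 is a small stress-inducible gene that NF-kB and other signals switch on early and that is known to influence cell survival. It reached the highest level of the set. In the Chad gate it stood at 6535 CPM aged (6247 to 6832) and 509 CPM young (475 to 544), with a log2 ratio of 3.68 (3.57 to 3.80). The Dcn gate had 2717 CPM aged (2658 to 2776) and 203 CPM young (179 to 229), with a log2 ratio of 3.74 (3.57 to 3.92). Both connective tissue gates were far apart between the libraries, unlike endothelial cells, which were high in both. Those held 1239 and 916 CPM, with a log2 ratio of 0.44 (-0.0078 to 0.90). In neutrophils the values were 629.5 and 219.7 CPM and the log2 ratio 1.52 (1.41 to 1.62). The Csf1r gate had 286 and 84.1 CPM and a log2 ratio of 1.77 (1.61 to 1.93). Lymphoid cells were near the bottom. The Cd79a gate held 7.68 and 8.83 CPM, with a log2 ratio of -0.20 (-1.45 to 0.83). The Cd3e gate held 35.8 and 1.35 CPM on 25 and 1 counts, and its log2 ratio of 4.73 (2.12 to 10.09) rests on that single young count. Jchain-gated cells had 5 aged counts and 0 young. Red cell precursors held 57.0 and 6.22 CPM, with a log2 ratio of 3.19 (2.18 to 4.32), so the aged Cd3e level is not above the level in cells that should lack the gene.

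Zfp36 encodes tristetraprolin, a zinc finger protein that binds AU-rich elements and brings cytokine messages to decay. It was broadly present, with aged levels from 175 CPM in the Cd79a gate to 1859 CPM in the Cdh5 gate. In the Dcn gate it stood at 1533 CPM aged (1489 to 1578) and 465 CPM young (429 to 504), with a log2 ratio of 1.72 (1.60 to 1.85). The Chad gate had 1208 and 365 CPM and a log2 ratio of 1.73 (1.53 to 1.92). Leukocytes were closer between the libraries. In the S100a8 gate the values were 1316 and 719 CPM (log2 ratio 0.87), in the Csf1r gate 1124 and 941 CPM (0.26). T cells held 504 and 294 CPM (0.78), and the Jchain gate 502 and 261 CPM (0.94). With any UMI of the marker these turned to -0.24 by Cd3e and -0.13 by Jchain, and by per-cell means the Csf1r ratio was -0.063. Endothelial cells were the highest in both libraries, overlapping the Csf1r gate in the young one. Their values were 1859 and 1078 CPM, with a log2 ratio of 0.79 (0.39 to 1.19). B lineage cells had 175 and 177 CPM and a log2 ratio of -0.016 (-0.24 to 0.20).

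Socs3 encodes an inhibitor of JAK kinases that cytokines acting through STAT3 induce as their own brake. It was sparse in every gate too. The Dcn gate held 43 aged and 5 young counts, 14.3 and 3.84 CPM, with a log2 ratio of 1.90 (0.57 to 3.59). Among high-Col1a1 cells of that gate the counts were 4 and 3. In the Csf1r gate 33 aged counts stood against 3 young, with a log2 ratio of 3.15 (1.47 to 5.50). These were the gates with enough counts for a ratio. T cells had 12 and 3 counts, neutrophils 9 and 2, the Chad gate 3 and 13, the Cdh5 gate 2 and 2, the Jchain gate 1 and 0, and the Cd79a gate 0 and 9. After thinning, 3.08% of aged Dcn-gated cells (1.69 to 5.11) and 0 of 73 young ones had a Socs3 UMI. A count of 0 there, set to the floor of 3, allows a share of up to 4.11%, so a difference in the share was not detectable at this depth.

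Cebpb and Cebpd encode C/EBP-beta and C/EBP-delta, leucine zipper factors that act beside NF-kB in acute phase responses. C/EBP-beta is also a factor of myeloid cells. Cebpb was close between the libraries where it was highest. Neutrophils held 2245 CPM aged (2195 to 2297) and 2211 CPM young (2171 to 2252), with a log2 ratio of 0.022 (-0.020 to 0.064). The Csf1r gate held 2119.8 and 2214 CPM and a log2 ratio of -0.063 (-0.10 to -0.025). In the connective tissue and endothelial gates the aged library was higher. The Chad gate had 1124 and 226 CPM and a log2 ratio of 2.31 (2.10 to 2.53). For Dcn the values were 1028 and 365 CPM and the log2 ratio 1.49 (1.35 to 1.64). In the Cdh5 gate 100 aged counts stood against 10 young, 925 and 148 CPM, with a log2 ratio of 2.65 (1.71 to 3.75). Lymphoid gates had low levels, and the B lineage and plasma cells were again higher in the aged library. B lineage cells had 108 and 36.6 CPM, with a log2 ratio of 1.57 (1.25 to 1.87). Plasma cells had 148 and 44.9 CPM, with a log2 ratio of 1.72 (0.87 to 2.64). With any UMI of the marker the B lineage log2 ratio was 0.21, under 2-fold. Plasma markers in the Cd79a gate summed to 865 CPM aged and 260.02 CPM young. In the Jchain gate 5 of 6 neutrophil markers summed to 456 CPM aged and 4 to 63.4 CPM young, and those of the Csf1r list to 247 and 42.2 CPM. Their part in these ratios was not tested. T cells held 87.4 and 79.7 CPM, with a log2 ratio of 0.13 (-0.41 to 0.67). Thinned shares of neutrophils with a Cebpb UMI were 77.7% aged (74.5 to 80.8) and 76.4% young (73.6 to 79.0).

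In the aged library Cebpd was highest in the endothelial and connective tissue gates, while in the young one neutrophils lay above the Chad gate and overlapped the Dcn gate. The Chad gate held 648 CPM aged (559.6 to 746) and 123 CPM young (107 to 141), with a log2 ratio of 2.40 (2.10 to 2.69). The Dcn gate had 431 and 226 CPM and a log2 ratio of 0.93 (0.75 to 1.12), the smallest of the 8 genes measured there. Endothelial cells had 814 and 266 CPM and a log2 ratio of 1.61 (0.87 to 2.43). Neutrophils and the Csf1r gate were closer between the libraries. Neutrophils held 237 and 205 CPM, with a log2 ratio of 0.21 (0.078 to 0.34). The Csf1r gate held 132 and 92.0 CPM, with a log2 ratio of 0.53 (0.35 to 0.70). These ratios turned to -0.041 in granule-low neutrophils and to -0.44 in C1qa-positive cells of the Csf1r gate. Lymphoid cells had few counts, 4 aged and 11 young by Cd3e, 0 and 0 by Jchain, and 1 and 57 by Cd79a. The Cd79a log2 ratio of -2.45 (-7.78 to 0.086) rests on that single aged count, and the young counts came from 16 of 1194 cells.

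Icam1 encodes a surface adhesion molecule to which leukocytes bind. Endothelial cells held the highest level in both libraries, 259 CPM aged (172 to 374) and 118 CPM young (51.0 to 233), on 28 and 8 counts. Their log2 ratio of 1.13 (-0.039 to 2.48) went to -0.0061 when double the Cdh5 UMIs were asked for. The Chad gate had 192 and 30.4 CPM and a log2 ratio of 2.66 (2.09 to 3.24). In the Dcn gate the values were 139 and 14.6 CPM and the log2 ratio 3.25 (2.59 to 3.99). Csf1r-gated cells had 138 and 40.8 CPM and a log2 ratio of 1.76 (1.52 to 1.99). Intervals of neighbours in the aged order, Cdh5, Chad, Dcn and Csf1r, overlapped. Neutrophils were low, 18.9 and 2.48 CPM on 64 and 13 counts, with a log2 ratio of 2.93 (2.06 to 3.92). B lineage cells held 6.72 and 7.08 CPM, with a log2 ratio of -0.077 (-1.44 to 1.04). T cells had 10 aged and 3 young counts, and plasma cells 0 and 2.

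**Figure D1:**
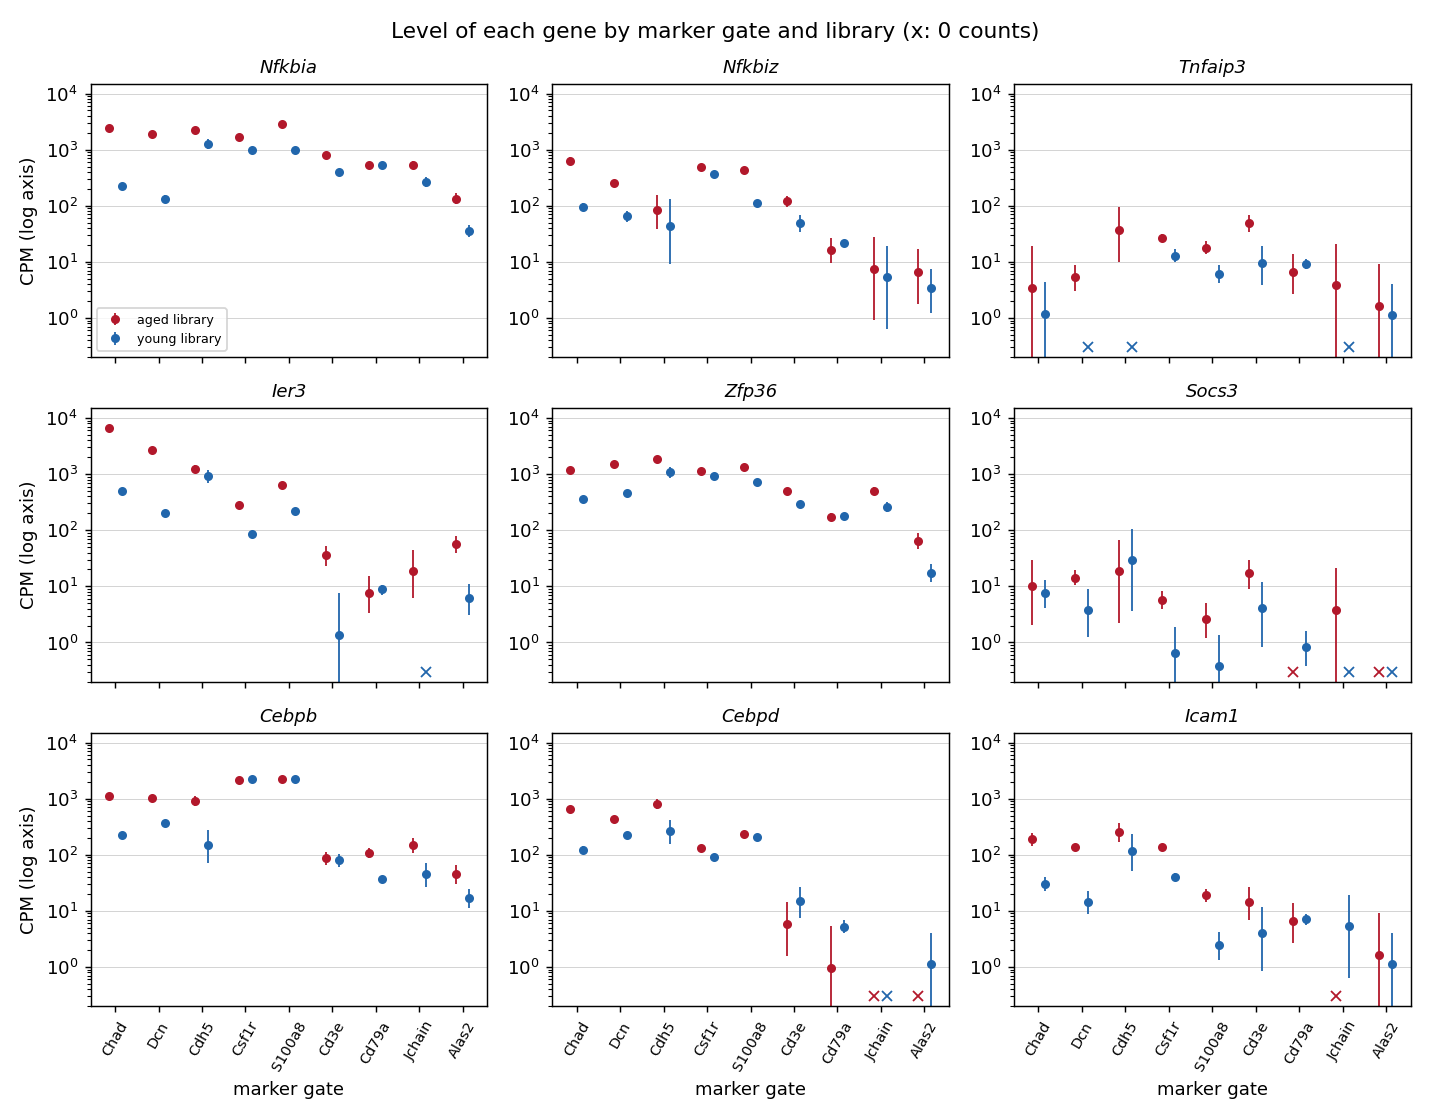
Level of each of the 9 genes (CPM, log axis) by marker gate in the aged and young library. Points are sums over all cells of a gate with exact Poisson 95% intervals, and crosses mark 0 counts: in the Chad and Dcn gates Nfkbia stands at 2407 and 1918 CPM aged against 226 and 133 CPM young, while Cebpb in the S100a8 gate stands at 2245 and 2211 CPM.

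A gene was counted as measured in a gate with at least 20 counts over both libraries. Measured genes of the set at least 2-fold higher in the aged library numbered 7 of 7 in the Chad gate (10.3% of all genes measured there) and 7 of 8 in the Dcn gate (9.32% of all genes). In neutrophils they numbered 5 of 8, namely Nfkbia, Nfkbiz, Tnfaip3, Ier3 and Icam1 (3.94% of all genes). The Csf1r gate had 4 of 9, namely Tnfaip3, Ier3, Socs3 and Icam1 (5.71% of all genes). T cells had 4 of 6, namely Nfkbia, Nfkbiz, Tnfaip3 and Ier3 (3.59% of all genes). This count was 1 with any Cd3e UMI or with thinned cells. Macrophage markers summed to 35.8 CPM in the aged and 1137 CPM in the young Cd3e gate, and their part in the result was not tested. Endothelial cells had 3 of 6, Cebpb, Cebpd and Icam1 (13.3% of all genes). In the Jchain gate 1 of 3 passed, Cebpb (17.4% of all genes). The Cd79a gate had 1 of 8 higher, Cebpb (1.97% of all genes), and 1 of 8 lower, Cebpd (22.6% of all genes). Red cell precursors also had 4 of 4, Nfkbia, Ier3, Zfp36 and Cebpb (9.16% of all genes), at a summed level of the 9 genes of 311 CPM aged and 83.7 CPM young. The same sum was 12762 and 1584 CPM by Chad and 8039 and 1476 CPM by Dcn. Because the genes were chosen with these libraries known, nothing is read from the counts beyond their size.

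Median log2 ratios of the measured genes of the set were 2.66 by Chad, 1.93 by Dcn, 1.53 by S100a8, 1.18 by Cd3e, 0.98 by Cdh5, 0.97 by Jchain, 0.81 by Csf1r and -0.14 by Cd79a. Medians over all genes of the same gates, in the same order, were -0.19, -0.018, -0.25, -0.35, 0.025, 0.24, -0.14 and -0.54. The set was thus above the median of all genes in each gate, by 2.85 by Chad and 0.40 by Cd79a, the ends of the range. Scaling by TMM, which centres the bulk of genes, moved every log2 ratio of a gate by 0.16 (Chad), 0.029 (Dcn), 0.23 (S100a8), 0.33 (Cd3e), -0.031 (Cdh5), -0.27 (Jchain), 0.13 (Csf1r) and 0.54 (Cd79a). Under it the small negative ratios of Nfkbiz, Tnfaip3, Ier3, Zfp36 and Icam1 in the Cd79a gate became positive, 0.14, 0.069, 0.34, 0.52 and 0.46. With that scaling, higher genes made up 36.0% rather than 8.04% of all genes past 2-fold in the Cd79a gate, 42.1% rather than 18.7% by Cd3e, 47.0% rather than 25.7% by S100a8, 46.4% rather than 35.6% by Chad, 59.5% rather than 47.4% by Csf1r, and 45.4% rather than 64.2% by Jchain.

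**Figure D2:**
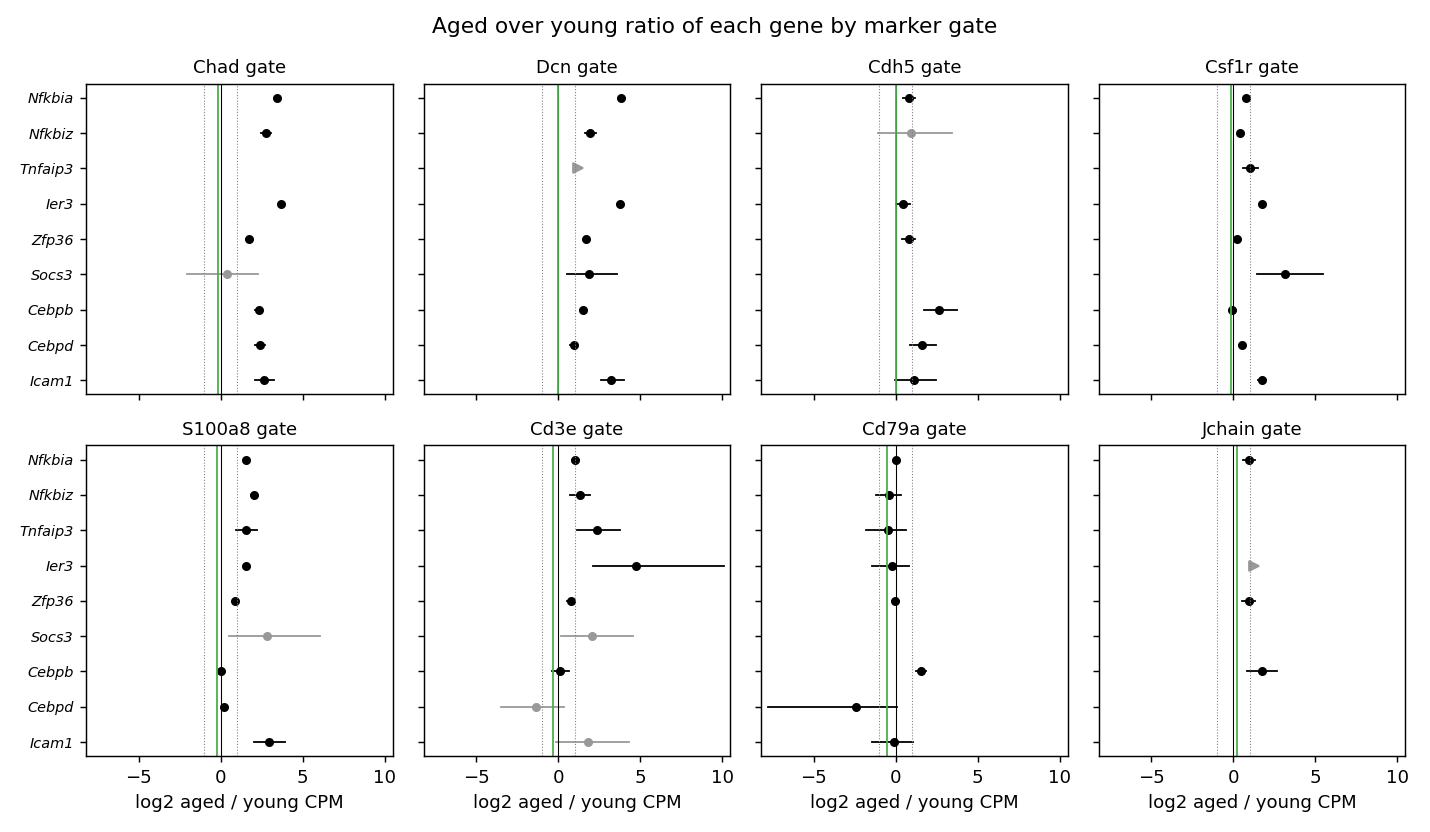
Log2 ratio of aged over young CPM for each gene in the 8 marker gates, with exact 95% counting intervals, dotted lines at 2-fold, a green line at the median of all genes, grey for fewer than 20 counts and triangles for lower bounds. In the Dcn gate the measured genes run from 0.93 for Cebpd to 3.85 for Nfkbia, and in the Cd79a gate Nfkbia and Zfp36 lie at 0.027 and -0.016.

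Counted per cell, the genes of the set were found together more often in aged connective tissue cells and neutrophils. At 2000 UMIs per cell at least 4 of the 9 genes were found in 62.5% of aged Chad-gated cells (45.8 to 77.3), against 9.65% of the young (4.92 to 16.6). The Dcn shares were 46.2% (41.5 to 50.9) and 17.8% (9.84 to 28.5). For neutrophils they were 57.2% (53.4 to 60.9) and 20.1% (17.6 to 22.7). In the Csf1r gate they were closer, 58.4% (53.3 to 63.3) and 46.6% (41.0 to 52.3). Few T cells reached 4 genes, 8.73% aged (4.44 to 15.1) and 3.75% young (0.780 to 10.6). B lineage cells had 0% aged (0 to 4.25) and 0.254% young, and no red cell precursor reached 4. Thinning left out 35 aged cells of the Dcn gate and 0 young ones, 0 by Chad in each library, 149 aged and 184 young neutrophils, and 5 and 6 cells by Csf1r.

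**Figure D3:**
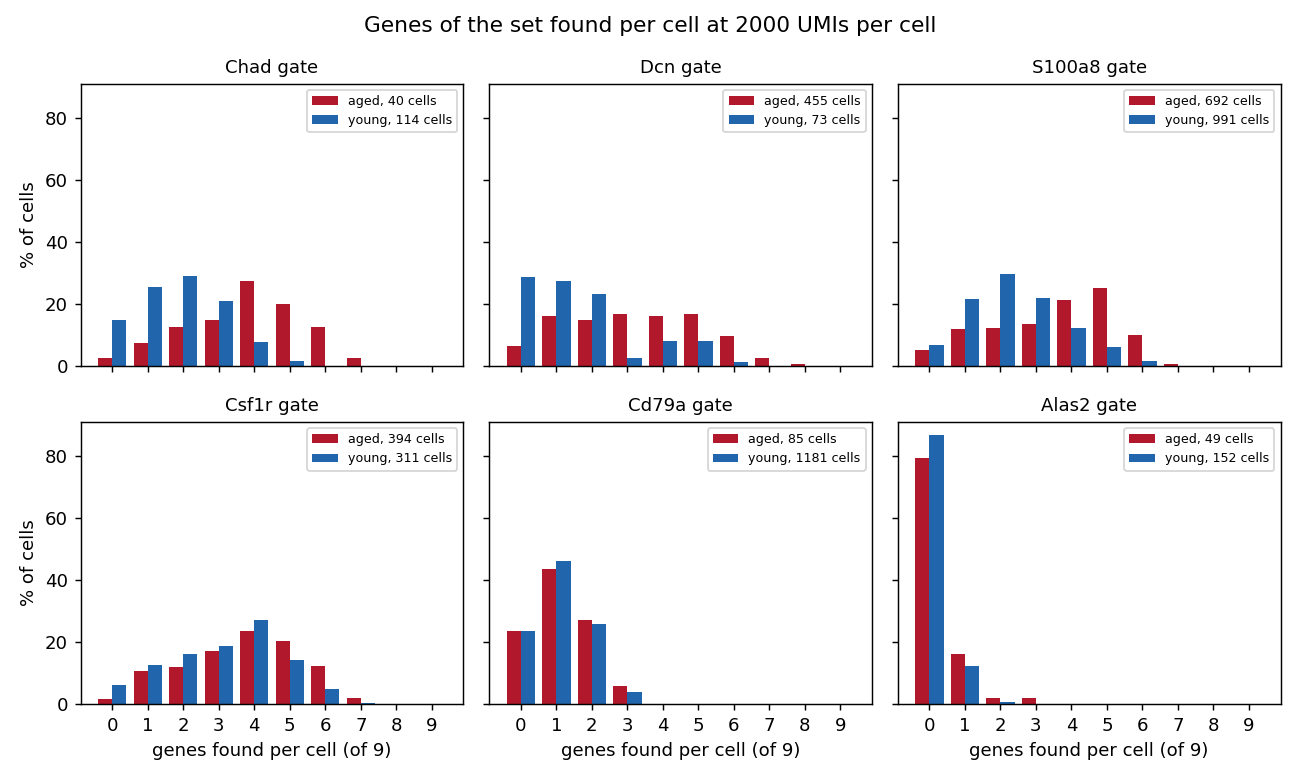
Share of cells (%) by how many of the 9 genes had a UMI after thinning to 2000 UMIs per cell, aged and young library, by gate. Aged Chad, Dcn and S100a8 cells are shifted to higher numbers, with 62.5%, 46.2% and 57.2% of cells at 4 or more, while no Alas2 cell reaches 4.

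Aged cells were not uniform. The summed level of the 9 genes per aged Dcn-gated cell was 529 CPM at the 10th percentile, 3493 CPM at the median and 19629.7 CPM at the 90th percentile, against 266, 973 and 3192 CPM in young cells. Of aged Dcn-gated cells 52.7% (48.1 to 57.1) lay above that young 90th percentile. For the Chad gate the aged values were 1169, 9629.7 and 24921 CPM and the young 385, 1325 and 3047 CPM, with 72.5% of aged cells (56.1 to 85.4) above the last. Neutrophils had 718, 6509.6 and 26175 CPM aged and 677, 2804 and 18703 CPM young, and 21.8% of aged cells (19.0 to 24.7) were above the young 90th percentile. In the Csf1r gate 8.02% of aged cells (5.55 to 11.1) were above it. The aged connective tissue cells thus ranged from levels of young cells to levels above nearly all of them. The intervals take the young percentile, from 73 cells by Dcn and 114 by Chad, as fixed. Levels per cell were not thinned, and aged cells were shallower, at medians of 5820.5 against 17574 UMIs by Dcn and 6446 against 14914 UMIs by Chad. The part of depth in the spread was not tested.

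Which genes shared cells was read from thinned aged Dcn-gated cells. Ier3 was found in 77.0% of the 243 cells with an Nfkbia UMI and in 36.3% of the 212 without. Nfkbiz was found in 45.7% of cells with Nfkbia and 6.60% without. Zfp36 was found in 79.5% of cells with Ier3 and 38.7% without. Cebpd stood apart from Nfkbia and Ier3, at 41.6% of cells with Nfkbia and 47.6% without, and 45.5% and 42.9% with and without Ier3. With and without Nfkbiz it was 37.6% and 47.0%. Of the 14 cells with Socs3, however, 78.6% had Cebpd, against 43.3% of those without. In aged neutrophils Nfkbiz was found in 56.6% of cells with Nfkbia and 15.9% without, and Cebpd in 31.0% and 25.4%. Cebpd was found there in 33.0% of cells with Zfp36 and 18.6% without, and in 26.5% and 31.7% with and without Nfkbiz. These cells come from 1 library and share their source.

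Within narrower parts of the connective tissue gates the ratios were smaller for most genes. Among cells with low Col2a1 in the Chad gate, 40 aged and 13 young, the log2 ratio was 3.20 (2.94 to 3.48) for Ier3, 2.80 (2.42 to 3.20) for Nfkbia and 1.36 (1.00 to 1.74) for Cebpb. It was 2.09 for Zfp36 and 1.98 for Cebpd, while Nfkbiz and Icam1 had 3.22 and 3.08 on 12 and 4 young counts. Those of Zfp36, Nfkbiz and Icam1 were larger than in the whole Chad gate, where they were 1.73, 2.75 and 2.66. In cells of the Dcn gate with high Col1a1, 94 aged and 68 young, Nfkbia stood at 1059 CPM aged and 115 CPM young, with a log2 ratio of 3.20 (2.94 to 3.48). Ier3 there had 1490.3 and 185 CPM and a log2 ratio of 3.01 (2.80 to 3.23). The other genes were nearer the young level, at 1.72 for Icam1, 1.21 for Nfkbiz, 1.10 for Zfp36, 1.10 for Cebpb and 0.21 (-0.074 to 0.49) for Cebpd. The 396 aged cells with low Col1a1 held 3043 CPM of Ier3 and 2147 CPM of Nfkbia, with only 5 young cells beside them. There the log2 ratio was larger than in the whole Dcn gate for Cebpd (1.99), Nfkbiz (2.24) and Cebpb (1.61). It was smaller for the other genes with a ratio. Depth still differed among high-Col1a1 cells, with medians of 6527 aged and 17494 young UMIs, and its part in the result was not tested.

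Neutrophils were split by the share of the granule genes Camp, Ltf and Ngp, which maturing cells make. Ltf was at 0 in the aged S100a8 gate and found in the young, so the aged split rests on Camp and Ngp. The granule-rich cells, 518 aged and 755 young, had 1614 CPM of Nfkbia aged and 229.7 CPM young, with a log2 ratio of 2.81 (2.70 to 2.92). Their log2 ratio was 3.05 (2.81 to 3.30) for Nfkbiz and 1.92 (1.76 to 2.08) for Ier3. The granule-low cells, 323 aged and 420 young, had 5238 and 2648 CPM of Nfkbia, with a log2 ratio of 0.98 (0.93 to 1.04). The ratio of Nfkbiz in them was 1.14 and that of Ier3 1.13. The granule-low cells thus held more Nfkbia in both libraries, at a smaller ratio between them. Cebpb had 4026 aged and 4578 young CPM in granule-low cells and 1314 and 1136 CPM in granule-rich ones. Granule-rich cells made up 61.6% of the aged and 64.3% of the young gate.

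The Csf1r gate was split by C1qa, a complement gene of tissue macrophages. In cells with C1qa, 91 aged and 34 young, Cebpb had 1963 and 809.7 CPM and a log2 ratio of 1.28 (1.11 to 1.45). The 308 aged and 283 young cells with little C1qa had 2142 and 2360.2 CPM and a log2 ratio of -0.14 (-0.18 to -0.10). Nfkbia had 1.39 (1.21 to 1.58) with C1qa and 0.75 (0.70 to 0.81) without. Ier3 had 0.79 (0.54 to 1.04) with C1qa and 2.18 (1.97 to 2.41) without. The ratio was thus larger with C1qa for Cebpb and Nfkbia and larger without it for Ier3, a difference between classes that was not tested. Icam1 had 1.91 and 1.75. Median depth of the cells with C1qa was 5698 aged and 10540.5 young UMIs.

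**Figure D4:**
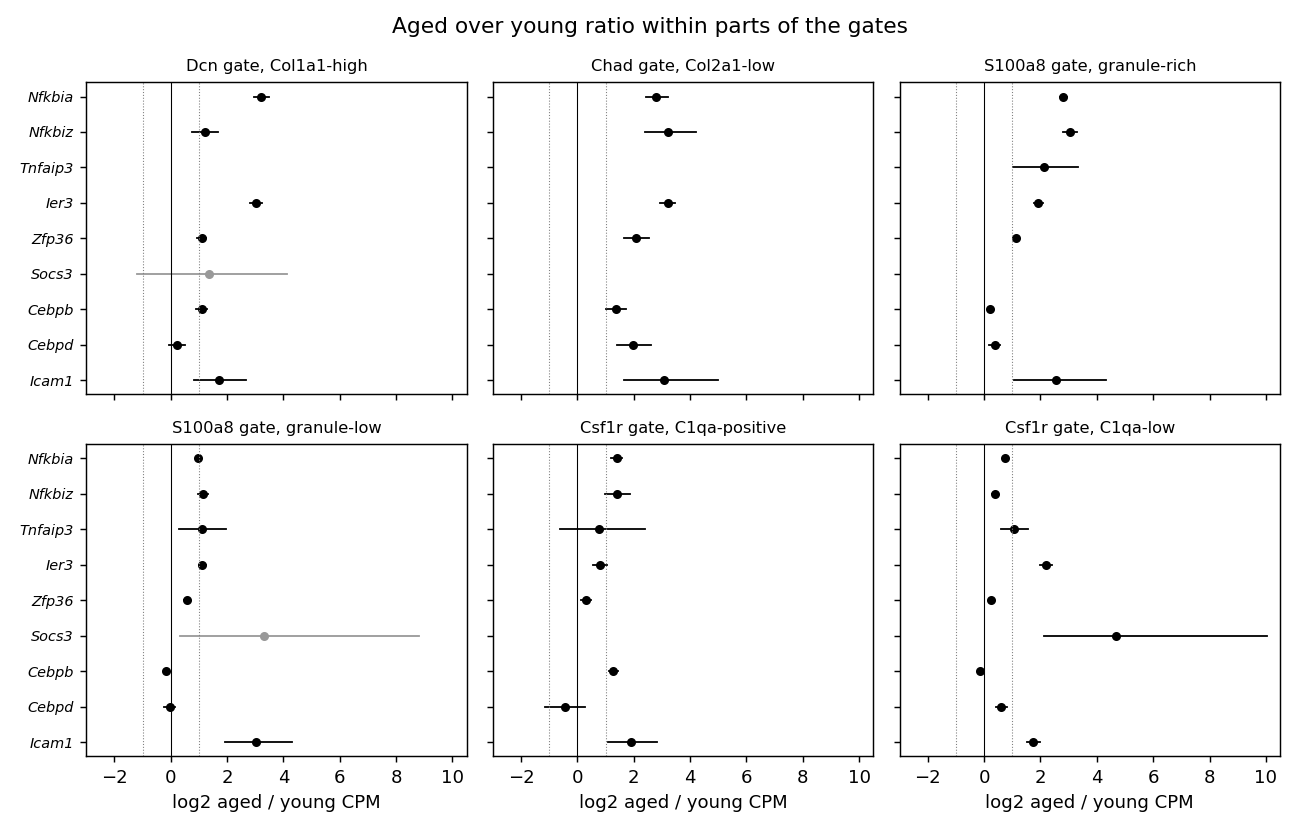
Log2 ratio of aged over young CPM within parts of the Dcn, Chad, S100a8 and Csf1r gates, with exact 95% counting intervals, dotted lines at 2-fold and grey for fewer than 20 counts. Nfkbia and Ier3 lie at 3.20 and 3.01 in high-Col1a1 cells of the Dcn gate, and Nfkbia lies at 2.81 in granule-rich and 0.98 in granule-low neutrophils.

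B lineage and plasma cells are limited by what else fills their libraries. An uncharacterised gene, AABR07060872.1, took 24.7% of aged and 0.476% of young UMIs in the Cd79a gate, and 41.1% and 48.2% in the Jchain gate. Leaving that gene and 3 other abundant immunoglobulin-like genes out of the totals, a setting chosen after seeing the data, gave log2 ratios of 0.50 for Nfkbia, 0.46 for Zfp36 and 2.04 for Cebpb in the Cd79a gate. With a looser Cd79a gate of at least 1 UMI, 653 aged and 3244 young cells, Nfkbia had 0.047 (-0.011 to 0.11), Cebpb 0.71 (0.53 to 0.88) and Ier3 1.23 (0.89 to 1.57). With the same genes out of its totals they had 0.30, 0.96 and 1.48. The minimum Jchain share of 0.2% kept most cells with at least 10 Jchain UMIs out of the Jchain gate. Without it 237 aged and 32 young cells passed, and Nfkbia had a log2 ratio of 0.42 (0.22 to 0.63), Zfp36 0.53 (0.33 to 0.75) and Cebpb 0.99 (0.60 to 1.41). AABR07060872.1 took 67.6% of aged and 43.3% of young UMIs in that looser gate. With it and the other 3 abundant genes out of the totals, the log2 ratios there were 1.07, 1.18 and 1.64. The plasma cell marker Derl3 was at 0 in every gate of both libraries, not in the Jchain gate alone. The other 3 plasma markers were found in the Jchain gate of both libraries.

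Other genes of the pathway were read from lists without the set. Among 21 genes known to be switched on by NF-kB, 12 of 13 measured in the Dcn gate were at least 2-fold higher in the aged library and 0 lower. Cxcl1, a neutrophil chemokine, stood there at 5769 CPM aged and 297 CPM young, with a log2 ratio of 4.28 (4.14 to 4.43). Ccl2, a monocyte chemokine, had 1968 and 443 CPM, and Irf1, an interferon regulatory factor, 437 and 56.1 CPM. In the Chad gate 8 of 8 measured were higher, with Cxcl1 at 6771 CPM aged and 16.1 CPM young, on 2006 and 27 counts. Sod2, the mitochondrial superoxide dismutase, had 2754 and 366 CPM. In the aged library Cxcl1 was thus above every gene of the set in the Dcn gate, and within the interval of Ier3 in the Chad gate. The Csf1r gate had 12 of 17 higher and the S100a8 gate 10 of 16, with Il1b, the gene of interleukin-1 beta, at 1960.4 and 171 CPM in the first and 2771 and 654 CPM in the second. Endothelial cells had 6 of 7 higher and plasma cells 2 of 2. By Cd3e 1 of 5 was higher and 3 lower, and by Cd79a 2 of 9 were higher and 3 lower. Of all genes measured, 9.32% were higher by Dcn, 10.3% by Chad, 5.71% by Csf1r and 3.94% by S100a8. The shares were 13.3% by Cdh5, 17.4% by Jchain, 3.59% by Cd3e and 1.97% by Cd79a. Lower genes were 833 of 5318 by Cd3e and 22.6% by Cd79a. Median log2 ratios of the list were 1.73 by Dcn, 2.84 by Chad, 2.27 by Csf1r, 1.53 by S100a8, -1.50 by Cd3e and -0.21 by Cd79a.

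Of 17 other inhibitors and feedback genes, 9 of 12 measured were at least 2-fold higher in the Chad gate, 8 of 15 in the Dcn gate, 6 of 17 in the Csf1r gate, 5 of 14 in the Cd3e gate and 4 of 15 in the S100a8 gate, and none was 2-fold lower in these gates. Bcl3, a nuclear relative of IkB, was among the higher genes in all 5, with 94.3 and 14.6 CPM in the Csf1r gate. Nfkbib, a further IkB gene, had 68.7 aged and 14.6 young CPM in the Dcn gate. Zc3h12a, an RNase that cleaves cytokine messages, had 51.7 and 11.5 CPM there. In the Cd79a gate 2 of 15 were higher and 1 lower. Of all genes measured, 10.3% were higher by Chad, 9.32% by Dcn, 5.71% by Csf1r, 3.59% by Cd3e and 3.94% by S100a8. By Cd79a 1.97% of all genes were higher and 22.6% lower. Among the 5 NF-kB subunits 4 of 4 measured were higher in the Chad gate, 4 of 5 in the Csf1r gate, 2 of 4 in each of the Dcn and Cd3e gates and 1 of 4 in the S100a8 gate. Nfkb1, the gene of the p50 precursor, had 198 and 89.1 CPM in the Csf1r gate, 72.4 and 30.0 CPM in the Dcn gate, and 49.0 and 61.4 CPM in neutrophils.

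Genes upstream of NF-kB were counted in the same way. Of 11 kinases of the pathway 2 of 8 measured were higher and 1 lower in the Dcn gate, and 0 of 8 either way in the Csf1r gate. In the S100a8 gate 1 of 8 was higher, Map3k8, and 3 were lower, Tab1, Map3k14 and Ikbke. Map3k8, a kinase that is itself induced by inflammatory signals, had 61.7 and 16.9 CPM in the Dcn gate and 147 and 47.7 CPM in neutrophils. Among 19 receptors and adaptors 3 of 17 were higher in the Dcn gate and 3 of 17 in the Csf1r gate, none lower. In the Chad gate 5 of 12 were higher, namely Tlr2, Myd88, Traf2, Traf6 and Ripk1, and 1 was lower. In the S100a8 gate 1 of 17 was higher, Tlr2, and 3 were lower, Irak4, Traf6 and Tradd. All genes measured gave 9.32% higher by Dcn, 10.3% by Chad, 5.71% by Csf1r and 3.94% by S100a8. Lower genes were 563 of 8487 by Dcn, 1139 of 6147 by Chad and 949 of 8353 by S100a8. Tlr2, a receptor for bacterial lipoproteins, had 161 and 61.2 CPM in the Csf1r gate and 269 and 102 CPM in neutrophils. Tnfrsf1a, a receptor of tumour necrosis factor, had 83.4 and 114 CPM in the Dcn gate. Of 10 genes of message decay, relatives and partners of Zfp36, 2 of 9 were higher by Dcn and 0 of 9 by S100a8. Zfp36l2 had 693 and 344 CPM in the Dcn gate. Of 5 other C/EBP genes only Ddit3, a stress-induced one, was at least 2-fold higher in any gate, with 574 and 95.8 CPM by Chad. Of 19 STAT and SOCS genes 2 of 14 were higher by Dcn and 0 lower, with Stat3 at 143 and 106 CPM.

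Genes known to respond to tissue digestion were set beside the results, since the cells were released by enzymes. Of 15 such genes measured, 7 were at least 2-fold higher and 2 lower in the Chad gate, and 6 were higher and 0 lower in the Dcn gate. Atf3, a stress-induced factor, had 1361 aged and 237 young CPM by Dcn, and Nr4a1, an immediate early nuclear receptor, 361 and 42.3 CPM. Fosb, an immediate early AP-1 subunit, had 1465 aged and 3734 young CPM in the Chad gate, the reverse direction. In neutrophils 3 of 15 were higher and 1 lower, and Fos stood at 449.7 aged and 1365 young CPM. By Cd3e the numbers were 4 higher and 3 lower of 13, and by Csf1r 2 and 2 of 15. Of all genes measured, 10.3% were higher by Chad, 9.32% by Dcn, 3.94% by S100a8, 3.59% by Cd3e and 5.71% by Csf1r. Lower genes were 1139 of 6147 by Chad, 563 of 8487 by Dcn and 949 of 8353 by S100a8. They were 833 of 5318 by Cd3e and 600 of 9472 by Csf1r. Some of the digestion genes thus went with the set and others against it, and the part of digestion in the result was not tested.

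Across the 16 values of 8 gates in both libraries the genes of the set followed each other to different degrees, described by Pearson's r of log2(CPM + 10). It was 0.93 between Ier3 and Cebpd, 0.83 between Zfp36 and Cebpd, 0.83 between Ier3 and Zfp36, and 0.82 between Nfkbiz and Cebpb. Tnfaip3 followed the others least, from -0.0050 with Ier3 to 0.50 with Nfkbia. Of 5253 genes searched, Ppp1r15a (0.91) and Sgk1 (0.89) were among those most like Ier3. Nfkbia was most like Zc3h12a (0.84), Nfkbiz like Gch1 (0.93), Zfp36 like Ppp1r15a (0.85) and Cebpb like Ptgs2 (0.93). Icam1 was most like Pvr (0.92), Tnfaip3 like Crem (0.92) and Socs3 like Daam1 (0.89). The points share cells and libraries and the genes were picked from many, so these are descriptions only.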

How the data were processed

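The deposited matrices hold whole-number UMI counts per gene and barcode, not normalised, made by the authors with Cell Ranger 6.1.1, per the file headers and the submitters' processing notes. The genome build is not given in the sources used here, nor is the annotation. The aged library held 8422 barcodes and 47228750 UMIs, the young 9914 and 65051972. A barcode was kept when it had 500 genes or more and no more than 20% of its UMIs in 13 mitochondrial genes, which left out 2337 aged and 1141 young barcodes. No doublet caller was run. Cells past gates of different lineages, 37 aged and 45 young, were left out.

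Gates took at least 2 UMIs of Cd79a, Csf1r, Cd3e, Cdh5 or Alas2, 3 of Dcn or Chad, and 10 of Jchain or S100a8 with at least 0.2% or 0.5% of UMIs. Counts were summed per gate and scaled to CPM. Ratios carry exact conditional binomial 95% intervals, levels exact Poisson and shares Clopper-Pearson intervals, and a library at 0 was set to a floor of 3 counts. With 1 library per age no test was made. edgeR 4.0.16 and DESeq2 1.42.0 served for alternative scalings only. From each pathway list, up to 4 genes of largest ratio in a gate with at least 50 CPM and 100 counts could be named, and 3 genes of like pattern for each gene of the set. The ratios were tested on simulated data. Alternatives covered filters, gate minimums, scalings, thinning and parts of gates. The genes and lists were chosen with earlier results of these data known. Computation used Python 3.11.15 and R 4.3.3, with scipy 1.17.1 for the intervals.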

Additional observations from a re-analysis of the deposited data

How the results depend on the processing

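Of 33 log2 ratios of at least 2-fold, 31 kept their sign in every one of the 24 alternatives that gave them a value. Icam1 in the Cdh5 gate went to -0.0061 with double the UMIs of each marker, and Socs3 in the Dcn gate to -0.53 among low-Col1a1 cells, on 2 young counts. In the Chad and Dcn gates no alternative moved the count of genes at least 2-fold higher by over 1.5 times. In the Cd3e gate it was 1 with any UMI of the marker, 1 with thinned cells and 2 with at least 100 counts. In the Cdh5 gate it was 5 with any UMI, in the Csf1r gate 2 with double the UMIs, and in the S100a8 gate 3 with at least 100 counts. In the Cd79a gate the higher count was 0 by per-cell means and 3 in pre-B cells, and the lower count 0 with any UMI, double the UMIs, cells of several gates kept, per-cell means, 100 counts, pre-B cells or the looser gate, and 4 in other B cells. In the Jchain gate the higher count was 3 with mitochondrial, ribosomal, haemoglobin, immunoglobulin, S100a8 and S100a9 genes out of the totals, 3 by per-cell means, 2 when thinned, 0 with 100 counts and 3 in the looser gate, and the lower count 2 with any UMI. The cause was not tested, except that a higher count minimum leaves fewer genes. No paired analysis was possible because there is 1 library per age, and for the same reason no replicate could be left out. The looser Jchain and Cd79a gate, the totals without 4 immunoglobulin-like genes and the removal of shared barcodes were chosen after seeing the data. Of the values of single ratios and list medians under an alternative, 1133 stayed within the interval of their ratio, or for medians of lists within 0.5, and 233 moved further, beside the 2 named first. Of 22 ratios under 2-fold, 16 took the other sign in at least 1 alternative, 7 of them with a reported interval that leaves out 0. These were Nfkbia and Zfp36 by Jchain, Zfp36 by Cd3e, Cebpd by S100a8, and Cebpb, Cebpd and Zfp36 by Csf1r. List medians took the other sign 45 times. In 11 pairs of gene and gate the unthinned shares of cells with a UMI had intervals that did not overlap between the ages. Of these pairs 5 kept the order of the ages in every alternative, and the others did not. In the whole Csf1r gate the aged and young shares were 62.4% and 34.1% for Icam1 and 65.7% and 33.1% for Ier3. They were 6.77% and 0.946% there for Socs3, and 51.4% and 63.4% for Cebpd. In the S100a8 gate they were 87.2% and 91.2% for Cebpb and 40.5% and 51.4% for Cebpd. Among C1qa-positive cells of the Csf1r gate, with median depths of 5698 aged and 10540.5 young UMIs, the aged and young shares were 35.2% and 38.2% for Icam1, 63.7% and 67.6% for Ier3, and 2.20% and 5.88% for Socs3. With any UMI of S100a8 they were 57.2% and 40.7% for Cebpb and 23.9% and 15.8% for Cebpd. After thinning they were 77.7% and 76.4% for Cebpb in the S100a8 gate and 17.5% and 17.4% for Cebpd in the Csf1r gate. Low counts of Tnfaip3 and Socs3 limit what these libraries can show.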
